A study of Homo sapiens with 4 samples.

Results

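The apolipoprotein genes described here are 10 genes chosen by symbol, namely APOA1, APOA2, APOA4, APOA5, APOB, APOC1, APOC2, APOC3, APOE and APOH, out of 22148 annotated genes in the background of the deposited tables. The libraries, made after removal of ribosomal RNA, came from the human cell lines HepG2 and Huh7, which the paper names as hepatocellular carcinoma (HCC) lines. Group A (HepG2) and group C (Huh7) were untreated, while group B (HepG2) and group D (Huh7) had received sonodynamic therapy (SDT), in which low-frequency ultrasound acts on targeted nanobubbles (NBs) loaded with the sonosensitizer hematoporphyrin monomethyl ether (HMME) and with lonidamine (LND). The treated and the untreated cells of a line therefore differed in ultrasound, bubbles and both drugs at the same time, and no dose or interval before RNA isolation was given for these libraries in the labels. There was 1 library per group and the tables hold no value per sample, so no difference has a replicate check and none was tested.

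Apolipoproteins are the protein part of the particles that carry cholesterol and triglycerides in blood, and most of them are made and secreted by hepatocytes. APOB is the large scaffold of chylomicrons and of very-low-density (VLDL) and low-density lipoprotein (LDL). APOA1 and APOA2 are the main proteins of high-density lipoprotein (HDL), whereas the small C proteins, APOA4, APOA5 and APOE exchange between particles and act on lipases and receptors.

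The measurement was whether a gene was listed. A gene was called listed when its Ensembl identifier stood under any Gene Ontology (GO) term in a deposited table. The tables were of group B vs. A and of group D vs. C, and each names differentially expressed mRNAs of its comparison. The tables hold no expression level, no read depth and no direction of change. It was thus not possible to say whether a listed gene was higher or lower after SDT. A gene that was not listed may have been unchanged, too low to call, not tested or without a GO term. For both comparisons, the paper gives more differential mRNAs than were listed.

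In HepG2 cells, 2 of the 10 genes were listed, APOA4 and APOE, against 21.6% of all background genes. In Huh7 cells, 5 of the 10 genes were listed, APOA1, APOA2, APOB, APOC3 and APOH, against 19.7% of all background genes. None of the 10 genes was listed in both cell lines, against 10.3% of the background genes, so that the count of 0 of 10 was near the background. As a share of each list, 0 of the 2 HepG2 genes and 0 of the 5 Huh7 genes were listed in the other cell line, beside 47.7% of all listed HepG2 genes and 52.2% of all listed Huh7 genes. The remaining 3 genes, APOA5, APOC1 and APOC2, were listed in neither. The HepG2 share was near the background, and the Huh7 share was above it. With 10 genes and 1 library per group, the difference between the cell lines is a description and was not tested.

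**Figure D1:**
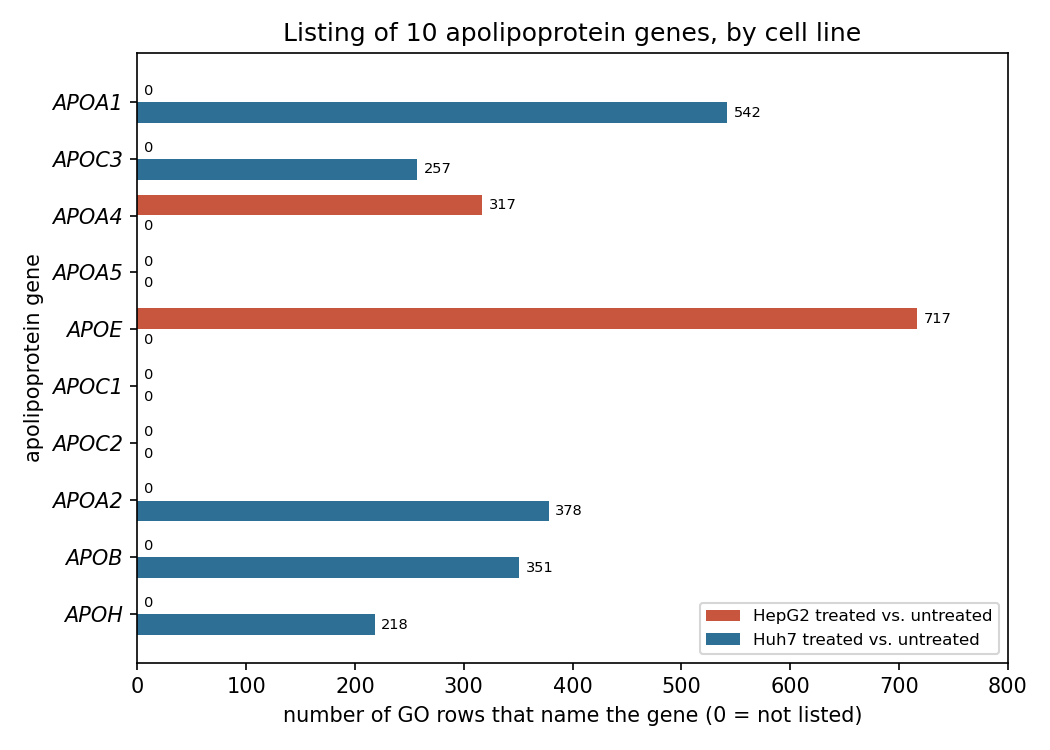
Number of GO rows naming each of the 10 apolipoprotein genes (horizontal axis) in the HepG2 (red) and Huh7 (blue) comparison of treated with untreated cells, where 0 means that the gene was not listed. APOE and APOA4 have bars in HepG2 cells only, APOA1, APOA2, APOB, APOC3 and APOH in Huh7 cells only, and no gene has both.

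APOE (ENSG00000130203), the ligand by which remnant particles bind hepatic receptors, was named in 717 GO rows of the HepG2 table. Only 12 of the 4783 listed HepG2 genes stood in more rows. APOA4 (ENSG00000110244), a protein of chylomicrons and HDL that is made mostly in the intestine, was named in 317 rows. The median listed gene stood in 87 rows in either cell line, so these genes carried many annotations, and a number of rows reflects annotation and not the size of a change.

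APOA1 (ENSG00000118137), the structural protein of HDL and activator of the cholesterol-esterifying enzyme LCAT, was named in 542 rows of the Huh7 table. APOA2 (ENSG00000158874), the second HDL protein, was named in 378 rows. APOB (ENSG00000084674), without which VLDL is not assembled, was named in 351 rows. APOC3 (ENSG00000110245), an inhibitor of lipoprotein lipase and of remnant uptake, was named in 257 rows. APOH (ENSG00000091583), a plasma glycoprotein that binds anionic phospholipids and takes part in coagulation, was named in 218 rows. APOA1 and APOA2, the main HDL proteins, and APOB, the VLDL scaffold, were thus listed in Huh7 cells and not in HepG2 cells. In HepG2 cells, APOA4 and APOE stood in the GO rows of both particles.

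The genes listed in neither table were APOC1 (ENSG00000130208), APOC2 (ENSG00000234906) and APOA5 (ENSG00000110243). APOC2 is the cofactor of lipoprotein lipase, APOA5 also promotes lipolysis, and APOC1 inhibits the lipid transfer protein CETP. The result for APOC2 is uncertain. The read-through gene APOC4-APOC2 (ENSG00000224916), which lies on the same strand and covers APOC2 in GENCODE release 29, was listed in Huh7 cells and not in HepG2 cells. It stood in 33 rows of the Huh7 table, among them chylomicron and plasma lipoprotein particle. Reads of APOC2 and of the read-through gene cannot be told apart in these tables.

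Of the other members, APOA1, APOA4, APOB, APOC1 and APOE also overlap another gene in GENCODE release 29. APOA1-AS, AP006216.3 and AC010872.1 lie on the opposite strand of APOA1, APOA4 and APOB, and AC011481.3 overlaps APOE and APOC1 on the same strand. None of these 4 genes was listed in either table, which hold mRNAs. The libraries were directional, but the strand setting of the counting was not given in the sources used here. The other 4 members overlap no gene.

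Neighbouring genes of the 2 apolipoprotein clusters differed in part in their listing. On chromosome 11, APOA5, APOA4, APOC3 and APOA1 are neighbours in this order. APOA4 was listed in HepG2 cells only, the adjacent APOC3 and APOA1 in Huh7 cells only, and APOA5 in neither. The flanking genes BUD13, ZPR1, SIK3 and PAFAH1B2 were not listed in either cell line. On chromosome 19, APOE was listed in HepG2 cells only, and its neighbours TOMM40, APOC1, APOC4 and APOC2 were not listed in either. Further out, NECTIN2 and CLPTM1 were listed in neither cell line and RELB in both. The read-through gene APOC4-APOC2 of this cluster was listed in Huh7 cells only. APOA2, APOB and APOH lie alone on chromosomes 1, 2 and 17.

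**Figure D2:**
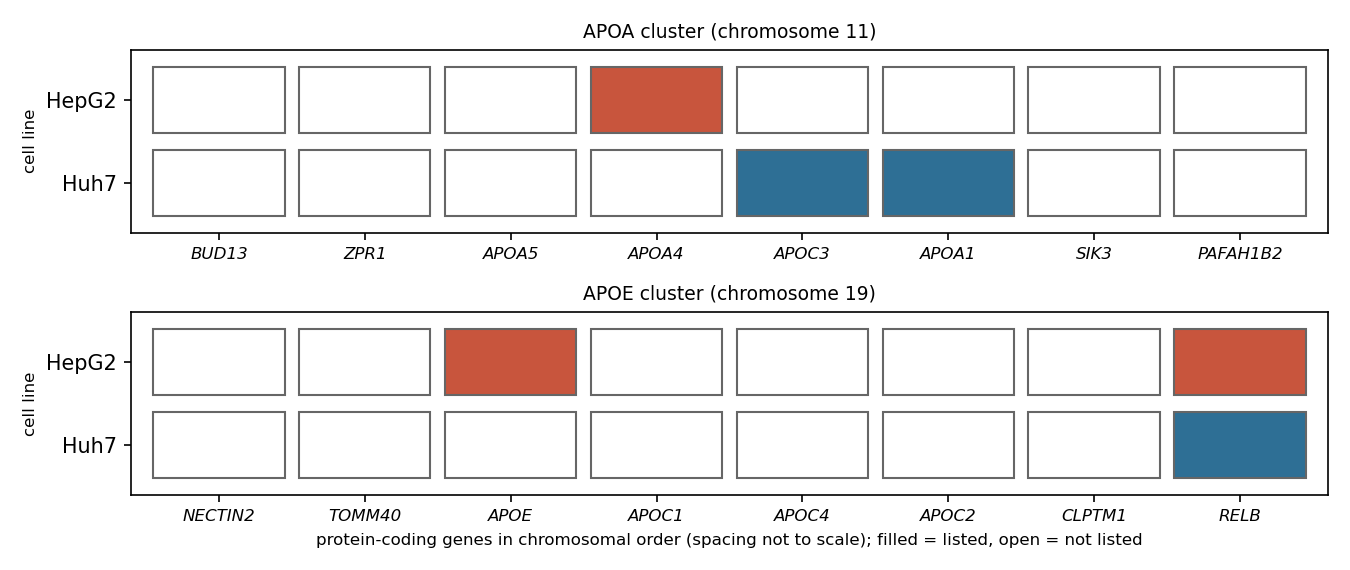
Protein-coding genes of the chromosome 11 (upper) and chromosome 19 (lower) apolipoprotein clusters with 2 flanking genes on each side, in the order of the RefSeq annotation of GRCh38.p14, with spacing not to scale. Filled boxes mark genes listed in HepG2 (red) or Huh7 (blue) cells. APOA4 is filled in HepG2 cells and its neighbours APOC3 and APOA1 in Huh7 cells, and RELB is filled in both. The read-through gene APOC4-APOC2 is not drawn.

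To show the regulatory sequence next to these genes, the 100 bases before the start of transcription are given for the 4 listed genes with an entry in the RefSeq promoter table (GRCh38.p14, the most upstream start for APOE, 5′ to 3′ on the gene's strand). APOA1, APOB and APOC3 had no entry. Capitals mark matches on either strand to TATAAA of the core promoter, AGGTCA of nuclear receptor sites, GGGCGG of Sp1 sites or CCAAT of CCAAT boxes. APOE and APOA4 were the HepG2 genes, and APOA2 and APOH belonged to the Huh7 genes.
APOE, chr19:44905696-44905795, plus strand: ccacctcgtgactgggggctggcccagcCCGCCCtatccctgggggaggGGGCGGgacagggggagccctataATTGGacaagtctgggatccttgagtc
APOA4, chr11:116823305-116823404, minus strand: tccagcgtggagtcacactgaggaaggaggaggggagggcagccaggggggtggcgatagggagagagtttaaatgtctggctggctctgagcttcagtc
APOA2, chr1:161223629-161223728, minus strand: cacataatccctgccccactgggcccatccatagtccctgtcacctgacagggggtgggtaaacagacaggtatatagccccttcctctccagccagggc
APOH, chr17:66229416-66229515, minus strand: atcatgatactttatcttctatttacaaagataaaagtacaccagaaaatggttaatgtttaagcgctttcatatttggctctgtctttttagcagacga

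In the 250 bases before the start, 7 of the 10 members could be searched. APOE held 2 Sp1 matches, which 42.6% of all 35116 promoters of that table hold at least singly, and a CCAAT match, which 32.0% hold. APOA4, APOA2 and APOH held none of the 4 motifs. Among the genes that were not listed, APOC2 held TATAAA and AGGTCA, found in 10.7% and 12.1% of promoters, APOA5 held AGGTCA and CCAAT, and APOC1 held GGGCGG. No motif was held by more than 2 of the 7 genes. A match describes letters in this window and is not a binding site.

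Lipoprotein GO rows, meaning rows whose description contains "lipoprotein" or "chylomicron", numbered 100 over both tables, and 68 of them named at least 1 of the 10 genes. There were 46 such rows for HepG2 and 54 for Huh7 cells, of which 32 were the same row with different members. APOC3 stood in 38 of the Huh7 rows, APOA1 in 31, APOB in 28, APOA2 in 27 and APOH in 8. APOE stood in 35 of the HepG2 rows and APOA4 in 27. These rows share genes and are not independent.

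The rows for the particles themselves showed the members most directly. Plasma lipoprotein particle has 45 background genes, of which 10 (22.2%) were listed for HepG2 and 16 (35.6%) for Huh7 cells. Such counts include the members, by which the rows were chosen, and 8 and 11 of the listed genes were not members. Only 4 genes were common to both cell lines, the transfer protein gene CETP, PCYOX1, SELENOS and the sorting receptor gene SORL1. High-density lipoprotein particle has 32 background genes, with 4 listed for HepG2 and 10 for Huh7 cells. The HepG2 genes were APOA4, APOE, APOL1 and CETP. The Huh7 genes were APOA1, APOA2, APOC3, APOH, CETP, HPR, LCAT, the hepatic lipase gene LIPC, the paraoxonase gene PON1 and SAA4.

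Chylomicron has 14 background genes. APOA4 and APOE were its only listed genes in HepG2 cells, whereas 7 were listed in Huh7 cells, namely APOA1, APOA2, APOB, APOC3, APOH, APOC4-APOC2 and APOBR, a receptor for APOB-containing remnants. Spherical high-density lipoprotein particle, with 14 background genes, had no row in the HepG2 table and 5 listed genes in Huh7 cells (APOA1, APOA2, APOC3, HPR and PON1). Discoidal high-density lipoprotein particle, with 9 background genes, held 1 listed gene in each cell line, APOE in HepG2 and APOA1 in Huh7 cells. Very-low-density lipoprotein particle, with 26 background genes, had 6 and 8 listed genes, of which 4 and 3 were not members. Low-density lipoprotein particle, with 20 background genes, had 5 in each cell line. In the last row the members were APOE in HepG2 cells and APOA1 and APOB in Huh7 cells.

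Rows for remodeling, the exchange and hydrolysis of particle lipids, also held more listed genes in Huh7 cells. Plasma lipoprotein particle remodeling, with 34 background genes, had 6 (17.6%) in HepG2 cells and 13 (38.2%) in Huh7 cells. Beside the members, HepG2 cells listed ABCG1, ALB, CETP and the endothelial lipase gene LIPG in this row. Huh7 cells listed ABCA5, ABCG1, AGT, ALB, CETP, LCAT, LIPC, PLA2G2A and the HDL receptor gene SCARB1. For assembly, the cell lines were closer. Plasma lipoprotein particle assembly, with 35 background genes, had 6 and 8 listed genes, 4 of them not members in each cell line. MTTP, which loads lipid onto APOB, and SOAT2 were in both, ARF1 and DGAT1 in HepG2 cells only, and LCAT and P4HB, the partner subunit of MTTP, in Huh7 cells only. Very-low-density lipoprotein particle assembly, with 12 background genes, named no member in HepG2 cells and APOB and APOC3 in Huh7 cells.

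Rows for receptor binding and clearance also named different members. Lipoprotein particle receptor binding, with 26 background genes, had 3 listed genes in HepG2 cells, APOE among them, and 6 in Huh7 cells, 4 of which were APOA1, APOA2, APOB and APOC3. Plasma lipoprotein particle clearance, with 77 background genes, had 15 and 16 listed genes.

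Lipoprotein oxidation, with 11 background genes, named APOA4 and APOD in HepG2 cells and APOD in Huh7 cells. The wide rows for lipases and lipoprotein metabolism were of another kind. Regulation of lipoprotein lipase activity, with 113 background genes, held 25 and 23 listed genes, many of them regulators of protein phosphatases such as PPP1R15A. Lipoprotein metabolic process, with 132 background genes, held 34 and 23, many of them genes that attach lipid anchors to cell proteins, such as PIGA and ZDHHC12 in HepG2 cells.

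Of the 68 rows, 25 had at least 20 background genes. Among these, 17 held more listed genes in Huh7 cells, 5 held more in HepG2 cells and 3 held equal numbers. When the 10 members were not counted, 7 rows held more listed genes in Huh7 cells, 12 held more in HepG2 cells and 6 held equal numbers. Across all lipoprotein rows, 83 listed genes of HepG2 cells and 75 of Huh7 cells were not members, and 36 of them were common to both.

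**Figure D3:**
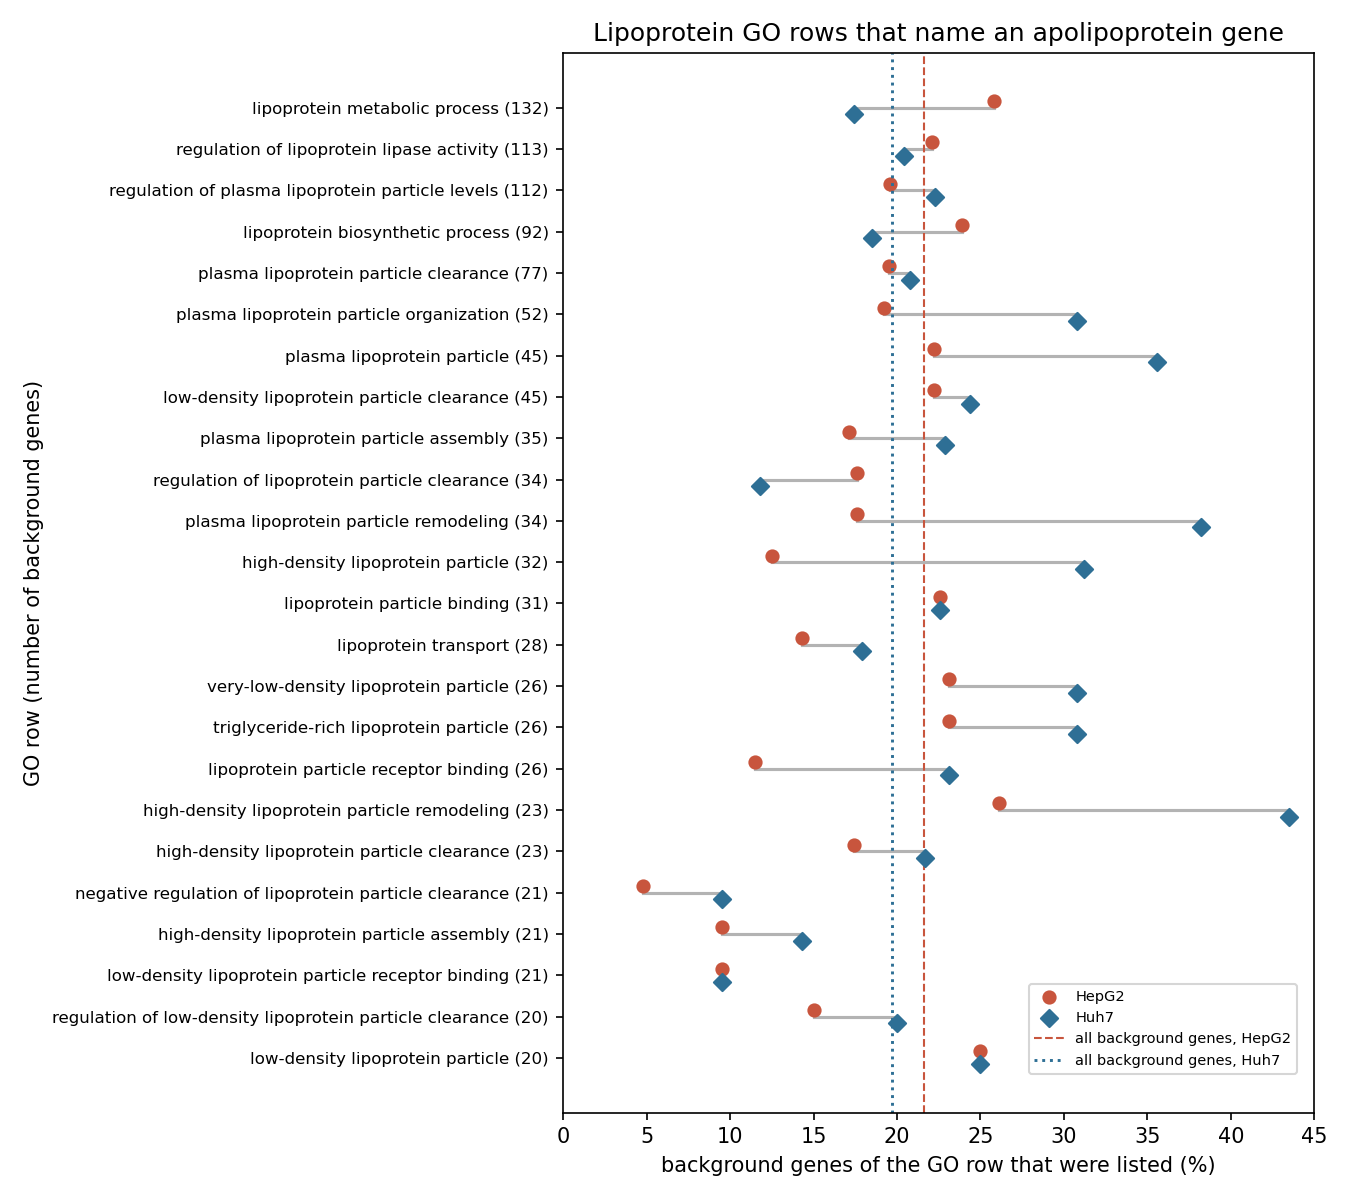
Share of the background genes of each lipoprotein GO row that was listed (horizontal axis, %) in HepG2 (red circles) and Huh7 (blue diamonds) cells, for 24 of the 25 rows that name an apolipoprotein gene and have at least 20 background genes, the number in brackets. The dashed and dotted lines mark the 21.6% and 19.7% of all background genes listed. Plasma lipoprotein particle remodeling stands at 17.6% and 38.2%, and lipoprotein metabolic process at 25.8% and 17.4%. The rows were chosen because they name a listed apolipoprotein gene, and these genes are counted in the shares.

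The other genes of the pathway were counted by role, beside the same background of 21.6% in HepG2 and 19.7% in Huh7 cells. Of 20 further apolipoproteins, serum amyloid A proteins and paraoxonases, 4 were listed for HepG2 and 5 for Huh7 cells. APOD and APOL2 were in both, APOL1 and PON2 in HepG2 cells only, and APOL6, SAA4 and PON1 in Huh7 cells only. Of 24 genes for receptors and uptake, 7 and 5 were listed. SORL1 and OLR1 were in both, LRP8, VLDLR, MSR1 and SDC1 were among those in HepG2 cells only, and SCARB1 with the endocytic receptors LRP2 and CUBN were in Huh7 cells only.

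Genes for particle assembly and lipid transfer, a list chosen with earlier results of these data known, were above the background share in both cell lines. In HepG2 cells 14 of 27 (51.9%) were listed, and in Huh7 cells 13 of 27 (48.1%). The GO rows for assembly, where members are also counted, varied. Plasma lipoprotein particle assembly had 17.1% and 22.9% of its 35 background genes listed. Very-low-density lipoprotein particle assembly had 33.3% and 41.7% of its 12 background genes listed. Of the 27 genes, 10 were listed in both, beside 10.3% of all background genes. They were MTTP, SAR1A, SURF4, PRAP1, ABCG1, ABCG4, CETP, SOAT2, DGAT2 and PLIN2. With about 50% of the list listed in each cell line, many shared genes follow from those shares. As a share of each list, these were 10 of 14 HepG2 genes, beside 47.7% of all listed HepG2 genes. For Huh7 cells they were 10 of 13, beside 52.2% of all listed Huh7 genes. SAR1A and SURF4 act in the export of cargo from the endoplasmic reticulum, and SOAT2 and DGAT2 make the cholesteryl ester and triglyceride of the particle core. MIA2, CIDEB, DGAT1 and NPC1L1 were listed in HepG2 cells only, and P4HB, ABCG5 and LCAT in Huh7 cells only.

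Of 18 lipases and their regulators, 4 were listed for HepG2 and 6 for Huh7 cells. PNPLA2 and ANGPTL4, an inhibitor of lipoprotein lipase, were in both, LIPG and PCSK5 in HepG2 cells only, and LIPC, CES1 and AADAC were among those in Huh7 cells only. Of 30 transcription factors known to act on apolipoprotein genes, 8 and 9 were listed. HNF4A, a main activator of these genes in hepatocytes, was in both, as were NR1H4, the bile acid receptor, CEBPA and CEBPB. NR2F6, PPARA and RORA were among those listed in HepG2 cells only, and NR0B2, NR5A2, PPARD, FOXA1 and FOXA3 in Huh7 cells only. Neither the number of genes listed in both nor the difference between the cell lines was tested for any list.

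**Figure D4:**
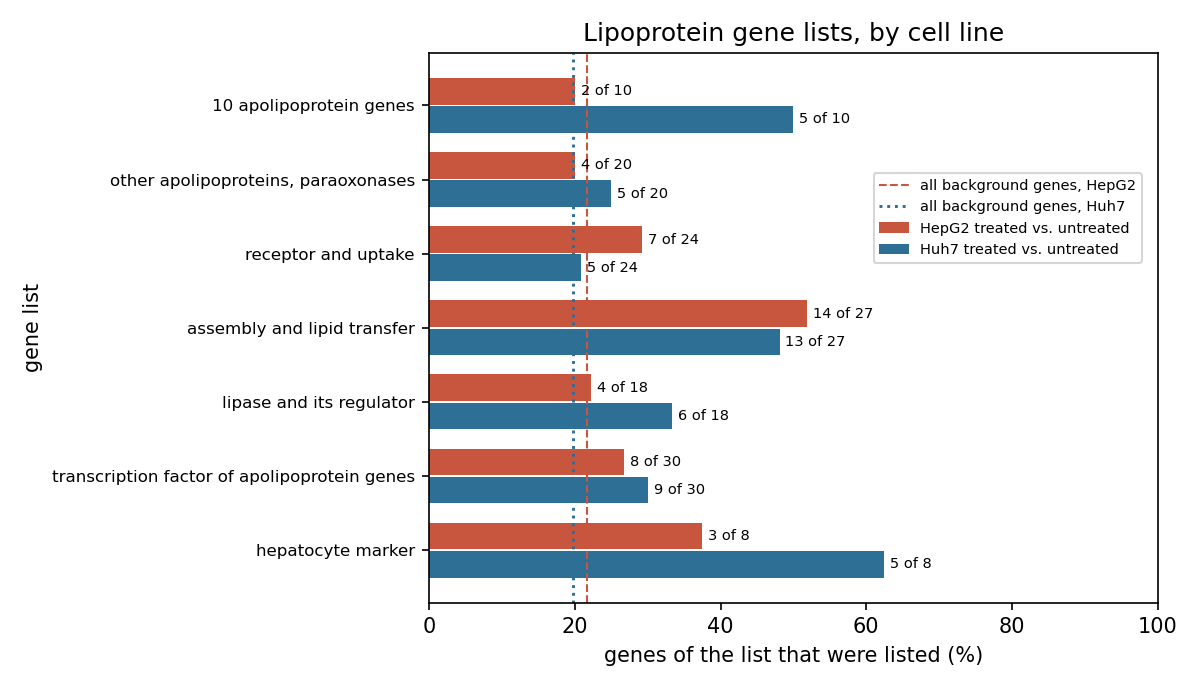
Share of the genes of each list (horizontal axis, %) that was listed in HepG2 (red) and Huh7 (blue) cells, with the counts beside the bars. Lines mark the 21.6% and 19.7% of all background genes. Assembly and lipid transfer genes stand at 51.9% and 48.1%, and 2 and 5 of the 10 apolipoprotein genes were listed. The lists were chosen with earlier results of these data known.

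A set of 8 hepatocyte genes was also looked up. ALB, AFP and HNF4A were listed in both cell lines, TTR and FGB in Huh7 cells only, and SERPINA1, TF and AHSG in neither. Since the tables hold no level, these entries do not show how strongly any hepatocyte gene was expressed. They cannot check the labelled cell type, because an expressed but unchanged gene is also not listed. The genes of extracellular space, the GO row of secreted proteins that named all 7 listed members, were listed at 22.5% in HepG2 and 24.1% in Huh7 cells.

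The length of a transcript, which can move the chance that a gene is called, was set beside the result. All members but APOB, whose longest transcript has 14121 nt in GENCODE release 29, have longest transcripts of 604 to 1929 nt. Among the 5195 protein-coding genes with a longest transcript under 2000 nt, 19.6% were listed in HepG2 and 18.6% in Huh7 cells. Of the 9 members in this class, 2 and 4 were listed. Whether length had a part in the listing of the members was not tested.

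The deposited tables of Kyoto Encyclopedia of Genes and Genomes (KEGG) pathways named members in 5 pathways. PPAR signaling pathway, with 69 background genes, had 17 listed genes in HepG2 and 19 in Huh7 cells, 7 of them common, and named APOA1, APOA2 and APOC3 in Huh7 cells only. Fat digestion and absorption, with 41 background genes, had 11 and 12 listed genes. Vitamin digestion and absorption, with 24 background genes, had 5 and 11. Both named APOA4 in HepG2 cells and APOA1 and APOB in Huh7 cells. Alzheimer's disease, with 168 background genes, named APOE in HepG2 cells among 26 listed genes, and African trypanosomiasis, with 34, named APOA1 in Huh7 cells among 15. APOH was in no pathway of these tables.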

How the data were processed

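RNA of 4 libraries was analysed by the authors, 1 per group. The labels name Bowtie2 2.2.8, HISAT2, StringTie 1.3.1 and Cuffdiff 2.1.1 in the submitters' processing notes. The differential mRNAs were taken at an adjusted p-value under 0.05, for which the paper's methods name Cuffdiff and its results edgeR. Genome build, annotation and strand setting are not given in the sources used here. The authors deposited, per comparison, a GOseq table of GO terms and a KOBAS table of KEGG pathways, with numbers of listed and background genes and the listed identifiers. Their p-value and corrected p-value columns were not used. The paper's text gives a total of clean reads, but the depth of each library is unknown here, so no interval or floor was computed.

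Here, the listed genes were rebuilt as the union of identifiers over all GO rows and looked up by Ensembl identifier, with Python 3.11.15. Symbols were found for 4755 of 4783 genes (HepG2) and 4346 of 4369 genes (Huh7), and all 10 members had an identifier. The reading of the tables was tested on simulated data. All members are named, every gene of a role list that was listed in both cell lines, those listed in 1 cell line where there were at most 6, and GO rows by the word rule with at least 5 background genes. Genes outside these lists are named as the further content of such rows, and flanking genes, overlapping genes and promoters were chosen after values were seen. Some genes and GO rows that meet these rules are not reported here. The members and lists were chosen with earlier results of these data known. Alternatives were the KEGG tables, other backgrounds, wider words, larger rows and identical rows merged.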

Additional observations from a re-analysis of the deposited data

How the results depend on the processing

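In the KEGG tables, the HepG2 comparison named 2 members and the Huh7 comparison 4, with 0 shared, the Huh7 count being 1 lower because APOH is in no pathway. The background share was 23.9% and 21.9% over all 19951 protein-coding genes, 22.5% and 24.1% over genes of extracellular space, and 19.6% and 18.6% over protein-coding genes with short transcripts, the last chosen after seeing the data. The number of GO rows that hold a member depended on the words searched. With cholesterol, sterol, triglyceride, acylglycerol, phospholipid efflux and lipase added, it was 93 in HepG2 and 115 in Huh7 cells. With at least 5 background genes it was 44 and 46, and with rows of the same listed genes merged it was 31 and 43. No replicate could be left out, since each group is 1 library. No paired analysis was possible because the tables hold no value per sample.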

Other observations

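GO rows outside the lipoprotein rows also named the members, and they were chosen after their values were seen. APOH stood in fibrinolysis, with 28 background genes, of which 9 (32.1%) were listed in HepG2 and 18 (64.3%) in Huh7 cells, 8 of them common. It also stood in negative regulation of blood coagulation, with 44 background genes, of which 17 (38.6%) and 27 (61.4%) were listed and 12 common, and which named APOE in HepG2 cells. Reverse cholesterol transport, with 24 background genes, had 6 listed genes in HepG2 cells with APOA4 and APOE among them, and 9 in Huh7 cells with APOA1, APOA2 and APOC3, and 2 genes were common. Triglyceride homeostasis, with 36 background genes, had similar shares in HepG2 (44.4%) and Huh7 cells (41.7%), again with different members, APOA4 and APOE against APOA1 and APOC3. Endoplasmic reticulum lumen, with 312 background genes, had 36.5% and 33.0% of its genes listed, beside 21.6% and 19.7% of all background genes. Some other rows that named members were near the background. Examples were extracellular region (22.7% and 22.8%) and receptor-mediated endocytosis (19.3% and 18.3%). No difference between the cell lines was tested in these rows.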
